A study of Mus musculus with 6 samples.

Results

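Skin lipid barrier enzymes and transporters were represented by 9 genes, taken by symbol from a table of 47360 gene symbols: Alox12b, Aloxe3, Abca12, Ugcg, Cers3, Elovl4, Smpd1, Pnpla1 and Cyp4f39. All 9 were found, each as a single entry. Their RNA was measured by bulk RNA-seq in dental epithelial organoids (DEOs) grown for 14 days in Matrigel from adult dental epithelial stem cells (aDESCs), that is, cells of the apical incisor bud of 9-week-old female wild-type C57BL/6J mice. Every medium contained Wnt3a-conditioned and R-spondin1-conditioned medium, EGF at 100 µg per ml, N-acetylcysteine and the kinase inhibitor Y27632. The 4 media compared were +N, with Noggin at 200 µg per ml; +ND, with Noggin and dibenzazepine (DBZ), a γ-secretase inhibitor that blocks Notch activation; +NF, with Noggin and FGF10 at 100 µg per ml; and +NFD, with Noggin, FGF10 and DBZ. The DBZ dose is 10 µM in the labels, while the methods text gives the same figure in millimolar. Each medium had 1 library, so the comparisons below have no replicate check and carry no p-value, and the number of mice behind a library is not given in the sources used here. The Jagged1 media +NJ and +NFJ were not analysed here.

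The outer epidermis is sealed by stacked sheets of ceramides with unusually long acyl chains. ELOVL4 elongates the fatty acid, CYP4F39 adds a hydroxyl group to its end, CERS3 joins it to a sphingoid base, PNPLA1 attaches linoleate, UGCG adds glucose, and ABCA12 loads the product into lamellar granules of the granular layer. After secretion, the lipoxygenases ALOX12B and ALOXE3 act one after the other on the linoleate so that the ceramide can be bound to the cornified envelope, and SMPD1, the lysosomal acid sphingomyelinase, releases further ceramides from sphingomyelin. Inherited loss of most of these genes causes ichthyosis, a scaling skin disease. The enamel-forming epithelium of the incisor does not cornify.

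The genes lie on 6 chromosomes of GRCm38. Aloxe3 (chr11:69125896-69149115) and Alox12b (chr11:69156989-69169792) are neighbours on the plus strand, 7873 bases apart, and the others are Abca12 (chr1:71242276-71414910), Ugcg (chr4:59189257-59222833), Cers3 (chr7:66743504-66823691), Smpd1 (chr7:105554360-105558388), Elovl4 (chr9:83778692-83806277), Pnpla1 (chr17:28858411-28890308) and Cyp4f39 (chr17:32468462-32492479). Only Pnpla1 overlapped another entry, Pnpla1os on the opposite strand, which reached 0.0227 FPKM in +ND and was listed at 0 elsewhere.

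Sequences from RefSeq (GRCm38.p6) directly upstream of the annotated start were read for 8 of the 9 genes; Aloxe3 had no entry. Those of Alox12b, Abca12, Elovl4 and Pnpla1 are shown because these genes had higher values in both media with DBZ, and that of Smpd1 because its values were nearly level. Each is written 5′ to 3′ in the direction of transcription and ends at the base before the start, with the Alox12b stretch cut to the 167 bases before the start in the deposited table; capitals mark a match to the RBPJ core described below.
Alox12b, chr11:69156822-69156988, plus strand: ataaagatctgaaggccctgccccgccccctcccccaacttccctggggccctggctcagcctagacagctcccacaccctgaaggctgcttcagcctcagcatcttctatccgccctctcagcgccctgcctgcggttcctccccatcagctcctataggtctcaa
Abca12, chr1:71414911-71415160, minus strand: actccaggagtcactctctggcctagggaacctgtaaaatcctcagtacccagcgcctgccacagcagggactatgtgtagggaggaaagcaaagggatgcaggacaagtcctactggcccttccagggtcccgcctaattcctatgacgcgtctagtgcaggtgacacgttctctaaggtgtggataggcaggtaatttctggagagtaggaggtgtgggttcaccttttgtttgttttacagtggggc
Elovl4, chr9:83806306-83806555, minus strand: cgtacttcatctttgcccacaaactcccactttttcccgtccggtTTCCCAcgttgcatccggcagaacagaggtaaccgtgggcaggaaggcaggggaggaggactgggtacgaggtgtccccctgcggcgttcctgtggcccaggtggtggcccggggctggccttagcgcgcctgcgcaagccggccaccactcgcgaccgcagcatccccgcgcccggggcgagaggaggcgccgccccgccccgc
Pnpla1, chr17:28858161-28858410, plus strand: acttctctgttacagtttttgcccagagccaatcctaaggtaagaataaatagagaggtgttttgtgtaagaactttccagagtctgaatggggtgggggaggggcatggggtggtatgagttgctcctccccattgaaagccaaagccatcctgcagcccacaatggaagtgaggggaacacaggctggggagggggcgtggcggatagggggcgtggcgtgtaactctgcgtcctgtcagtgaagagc
Smpd1, chr7:105554110-105554359, plus strand: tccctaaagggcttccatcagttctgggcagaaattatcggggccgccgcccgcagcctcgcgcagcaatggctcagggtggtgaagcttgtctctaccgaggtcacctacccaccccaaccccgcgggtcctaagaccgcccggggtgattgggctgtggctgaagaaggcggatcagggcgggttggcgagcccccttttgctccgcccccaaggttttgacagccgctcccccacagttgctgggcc

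In the 250 bases before the RefSeq start of the 8 genes, 4 sets of letters were searched on both strands. The core TGGGAA, bound by RBPJ, the DNA-binding partner of Notch, was found in 1 of the 8 windows, that of Elovl4, 205 bases before the start, and in 21.6% of 32851 windows of all genes. The AP-1 site TGANTCA, the core AACNGGT bound by Grainyhead-like factors and the TATA letters TATAAA were in none of the 8 windows and in 6.75%, 6.97% and 12.4% of all windows. A match to letters is not a bound site, and enhancers outside these windows were not searched. GC content ran from 49.6% in the window of Cers3 to 80.4% in that of Ugcg, with a median of 52.4% over all windows. The window of Cyp4f39 lies before a RefSeq start 15739 bases from the start in the deposited table. For Ugcg the RefSeq start lies 293 bases after the deposited start, so its whole window falls inside the gene as deposited.

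The deposited values are FPKM, fragment numbers scaled to transcript length and to the mapped fragments of the library, so that levels can be compared between genes. By the spacing of the lowest values, the libraries held from about 21400000 fragments (+ND) to about 27800000 (+N), and between 19606 and 20450 symbols were above 0. Of the keratin genes that mark the basal layer of stratified epithelium, Krt5 was between 4984 and 6582 FPKM and Krt14 between 5530 and 12652 FPKM, with both lowest in +ND. As a check of the DBZ media, the Notch target Nrarp was at 18.2 FPKM in +N and 9.12 in +NF, against 2.80 in +ND and 2.60 in +NFD, and Hes1 was at 157 in +N and 109 in +NF, against 74.6 in +ND and 80.1 in +NFD. Hey1 and Heyl were below 1 FPKM in all 4 libraries. Fragment numbers given below are approximate and assume the longest annotated transcript, so they are upper values. Intervals built on them can therefore be too narrow, and they cover counting error only, not variation between cultures.

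Alox12b encodes the 12R-lipoxygenase that oxidises the linoleate of acylceramides first. It was at 3.33 FPKM in +N and 65.7 in +ND, and with FGF10 at 0.281 in +NF and 23.4 in +NFD. The order from high to low was therefore +ND, +NFD, +N, +NF, with a 234-fold span from the highest library to the lowest. The value in +NF rests on about 19 fragments, against 3420 in +ND.

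Aloxe3 encodes the second enzyme of the pair, a hydroperoxide isomerase. Its FPKM was 11.3 in +ND, 5.06 in +NFD, 0.406 in +N and 0.111 in +NF, the same order as Alox12b, with at most about 14 fragments in +NF. Alox12b was above Aloxe3 in every library, from 2.52 times in +NF to 8.20 times in +N.

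Pnpla1 encodes the transacylase that makes acylceramide. It had the lowest level of the 9 genes in each of the 4 libraries, with 5.40 FPKM in +ND, 2.03 in +NFD, 0.150 in +N and 0.0446 in +NF. The value in +NF corresponds to at most about 5 fragments and that in +N to 19, so the ratio between these media is uncertain.

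Abca12 encodes the transporter that fills lamellar granules. It was at 2.23 FPKM in +N and 16.6 in +ND, and with FGF10 at 0.826 in +NF and 6.18 in +NFD. Elovl4, the elongase of very long acyl chains, was at 5.82 FPKM in +N and 41.8 in +ND, and at 1.53 in +NF and 10.5 in +NFD. Both genes followed the order seen for the lipoxygenases, with spans of 20.1-fold for Abca12 and 27.3-fold for Elovl4.

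Ugcg, the ceramide glucosyltransferase used by many cell types, was at 4.60 FPKM in +N and 26.9 in +ND, and at 6.76 in +NF and 12.3 in +NFD. It was highest in +ND like the genes above, but its lowest library was +N and not +NF. Cers3, the ceramide synthase for very long acyl chains, was at 54.7 FPKM in +ND, 31.7 in +N, 25.9 in +NF and 25.7 in +NFD, so that +ND stood above 3 closer values.

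Cyp4f39, the fatty acid hydroxylase, was at 32.1 FPKM in +ND, 29.0 in +N, 17.2 in +NFD and 5.67 in +NF, with +N and +ND close together and +NF lowest. Smpd1 was at 38.5 FPKM in +NFD, 31.6 in +NF, 31.2 in +ND and 27.5 in +N, a span of 1.40-fold. It was the only one of the 9 genes with its highest value in +NFD; the other 8 were highest in +ND.

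**Figure D1:**
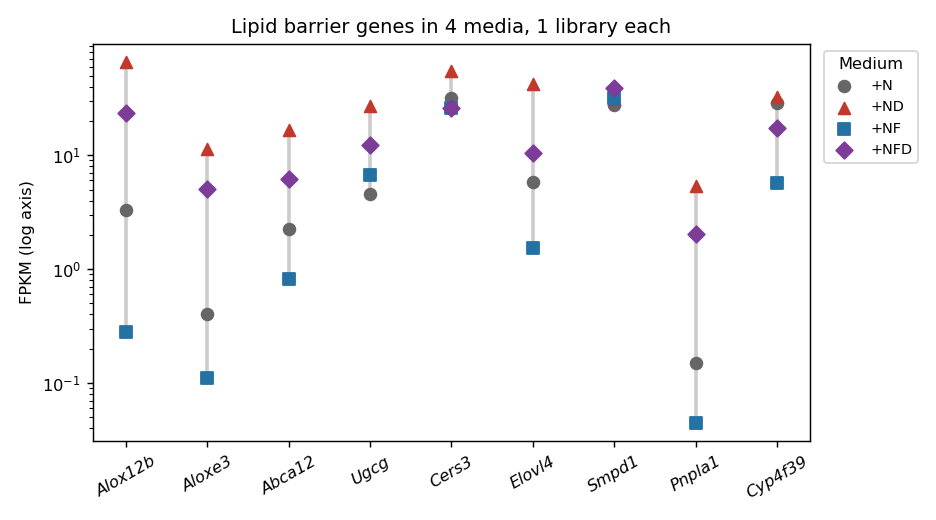
FPKM (log axis) of the 9 lipid barrier genes, with 1 point for the single library of each medium and a grey line from the lowest to the highest value. Alox12b, Aloxe3, Abca12, Elovl4 and Pnpla1 share the order +ND, +NFD, +N, +NF from high to low, while the 4 points of Smpd1 lie between 27.5 and 38.5 FPKM.

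The first question was how the genes differ when Notch activation is blocked without FGF10 (+ND against +N). All 9 had a higher FPKM in +ND, and 6 of them were past 2-fold upwards and none downwards on the scale log2((FPKM + 1)/(FPKM + 1)), which is used for all log2 ratios and counts here and understates changes of low values. Of 13173 genes that reached 1 FPKM in either library, 5.88% were past 2-fold upwards and 5.29% downwards, that is, 774 and 697 genes, or 615 and 842 when ratios were centred on their median, which left the 6 members past 2-fold. The median log2 ratio was 2.45 over the 9 genes and 0.10 over all genes. The log2 ratios were 3.95 for Alox12b, 3.13 for Aloxe3, 2.65 for Elovl4, 2.48 for Pnpla1, 2.45 for Abca12 and 2.32 for Ugcg. Of the 13173 genes, 57 had a higher log2 ratio than Alox12b and 135 a higher one than Ugcg. As plain FPKM ratios, Alox12b was 19.7-fold higher (95% counting interval 17.2 to 22.7), Aloxe3 27.8-fold (21.1 to 37.3), Pnpla1 36.0-fold (22.8 to 60.3) and Abca12 7.45-fold (6.81 to 8.16). Cers3 was 1.72-fold higher (1.64 to 1.81), and Smpd1 and Cyp4f39 were 1.13-fold (1.06 to 1.21) and 1.11-fold (1.04 to 1.18) higher. For Smpd1 and Cyp4f39, 43.9% and 46.8% of all genes had a higher log2 ratio. The FPKM summed over 12 markers of suprabasal keratinocytes was higher with DBZ, at 600 in +N and 2720 in +ND, and 111 in +NF and 635 in +NFD. A large part of these sums was Krtdap, at 265 in +N and 1982 in +ND, and 66.0 in +NF and 375 in +NFD. Of the 9 markers tested in +ND against +N, 7 were past 2-fold upwards and 2 downwards. Of 9 basal epithelium markers, all above 1 FPKM in every library, 3 were past 2-fold downwards in +ND against +N and none upwards: Krt14, at 5530 FPKM against 12652, and the adhesion genes Cdh1, at 68.0 against 163, and Epcam, at 54.8 against 122. Of the 9, 3 were higher and 6 lower in +ND against +N. Trp63 was among the higher ones, at 166 FPKM against 88.5. The FPKM summed over the 9, most of it from Krt5 and Krt14, was 20780 in +N and 11970 in +ND. It was 17037 in +NF and 14205 in +NFD. Epcam alone passed 2-fold, downwards, in +NFD against +NF. The part of these shifts in the members' values was not tested. In bulk RNA, more cells of a type and more RNA per cell cannot be told apart.

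With FGF10 present, DBZ was examined in a pair of libraries that shares none with the first (+NFD against +NF). Again 6 of the 9 genes were past 2-fold upwards and none downwards, where 3.72% and 2.69% of 13349 genes were. The median log2 ratio was 1.54 over the 9 genes and 0.05 over all genes. Alox12b had a log2 ratio of 4.25, Aloxe3 2.45, Elovl4 2.19, Abca12 1.98, Pnpla1 1.54 and Cyp4f39 1.45. Alox12b was 83.6-fold higher as a plain FPKM ratio (53.3 to 139), and Abca12 was 7.48-fold higher (6.47 to 8.69). Cers3 was at 0.993 times its value in +NF (0.937 to 1.05), and Ugcg was 1.81-fold higher (1.66 to 1.99).

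The 5 genes past 2-fold upwards with DBZ in both backgrounds were Alox12b, Aloxe3, Abca12, Elovl4 and Pnpla1. Over the 12774 genes tested in both, 235, or 1.84%, were past 2-fold upwards in both. The plain FPKM ratio for DBZ was much the same without and with FGF10 for Abca12 (7.45 and 7.48) and Elovl4 (7.19 and 6.87). On the log2 scale with the pseudocount it was 2.45 and 1.98 for Abca12 and 2.65 and 2.19 for Elovl4. For Alox12b the plain ratios were 19.7 and 83.6, and their counting intervals do not overlap. The log2 ratios of Alox12b with the pseudocount were closer, at 3.95 and 4.25. For Aloxe3 and Pnpla1 the direction of the difference turned with the scale: the plain ratios were 27.8 and 45.5 for Aloxe3 and 36.0 and 45.5 for Pnpla1, while the log2 ratios with the pseudocount were 3.13 and 2.45, and 2.48 and 1.54. For Ugcg the plain ratio was 5.84 without FGF10 and 1.81 with it, and for Cyp4f39 1.11 and 3.04. Whether such differences between backgrounds exceed variation between cultures could not be tested with 1 library per medium.

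**Figure D2:**
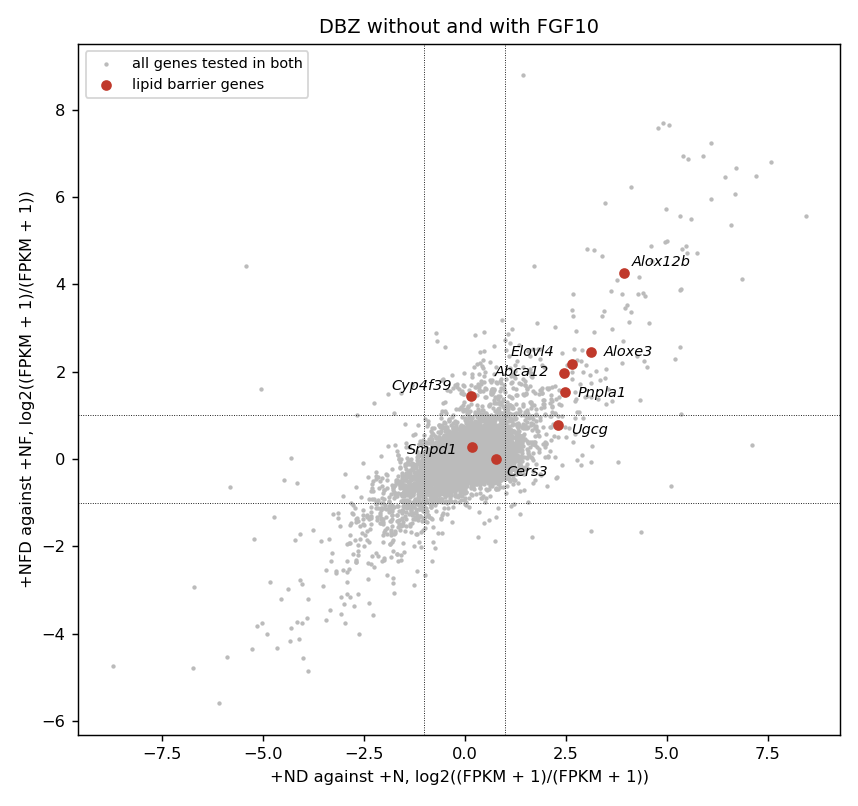
Log2 ratios for DBZ without FGF10 (x axis, +ND against +N) and with FGF10 (y axis, +NFD against +NF), with grey points for genes tested in both comparisons, red points for the 9 lipid barrier genes and dotted lines at 2-fold. Alox12b, Aloxe3, Abca12, Elovl4 and Pnpla1 lie past 2-fold on both axes, Ugcg on the x axis alone and Cyp4f39 on the y axis alone.

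FGF10 was compared next. The FGF10 comparisons use the same libraries as the DBZ comparisons, paired another way, so they are not separate observations. A single high or low library enters a comparison of each kind. Without DBZ (+NF against +N), 7 of the 9 genes reached 1 FPKM in the higher library; Aloxe3 and Pnpla1 did not. Of these 7, 3 were past 2-fold downwards in +NF and none upwards, where 2.44% and 2.76% of 13090 genes were. Over all genes, 361 were past 2-fold upwards and 319 downwards, against 248 and 412 with centred ratios and 277 and 388 with upper-quartile scaling, and the 3 members stayed past 2-fold under both. The log2 ratios were -2.17 for Cyp4f39, -1.76 for Alox12b and -1.43 for Elovl4, and 69 of the 13090 genes had a lower ratio than Cyp4f39. Abca12 had a log2 ratio of -0.82, with a plain ratio of 0.370 (0.314 to 0.435), and with a pseudocount of 0.1 it too was past 2-fold downwards. Aloxe3, under the filter, was at 0.274 times its +N value (0.140 to 0.501), and Pnpla1 at 0.297 times (0.0868 to 0.824). Ugcg was 1.47-fold higher in +NF (1.31 to 1.65) and Smpd1 1.15-fold higher (1.08 to 1.22). The median log2 ratio was -0.82 over the 7 genes and 0.12 over all genes. Of the suprabasal keratinocyte markers, 6 of the 7 tested were past 2-fold downwards in +NF against +N and none upwards.

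With DBZ (+NFD against +ND), 7 of the 9 genes were past 2-fold downwards in +NFD and none upwards, where 3.11% and 3.39% of 13293 genes were. Over all genes, 450 were past 2-fold upwards and 414 downwards, against 345 and 506 with centred ratios, which left the members' count at 7. Elovl4 had the lowest log2 ratio of the 9, at -1.90, and the others past 2-fold were Alox12b at -1.45, Abca12 at -1.30, Pnpla1 at -1.08, Ugcg at -1.07, Cers3 at -1.06 and Aloxe3 at -1.02. The values in +NFD were 25.1% of those in +ND for Elovl4, 35.7% for Alox12b and 47.1% for Cers3. Several of these lie just past the 2-fold limit, and Cyp4f39, at -0.86, lies just inside it. Of the suprabasal markers, 8 of the 9 tested were past 2-fold downwards in +NFD and none upwards, and their part in the members' values was not tested in either FGF10 comparison. Smpd1 went the other way, 1.23-fold higher in +NFD (1.16 to 1.31). The genes past 2-fold downwards with FGF10 in both backgrounds were Alox12b and Elovl4, 2 of the 7 tested in both, where 117 of 12635 genes, or 0.926%, were.

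Addition of both factors (+NFD against +N) shares its libraries with the comparisons above. Of the 9 genes, 5 were past 2-fold upwards in +NFD and none downwards, where 5.85% and 4.03% of 13358 genes were. Alox12b was at 23.4 FPKM against 3.33, a log2 ratio of 2.50; Aloxe3 had a log2 ratio of 2.11, Pnpla1 1.40, Ugcg 1.24 and Abca12 1.15. When ratios were centred on the median of all genes, 0.18, Abca12 came to 0.97 and the members' count to 4, and the split over all genes went from 782 upwards and 538 downwards to 540 and 714; upper-quartile scaling gave 624 and 662. Elovl4 was 1.81-fold higher (1.61 to 2.02) and Smpd1 1.40-fold (1.32 to 1.49). Cyp4f39 was at 0.594 times its +N value (0.553 to 0.638) and Cers3 at 0.811 times (0.767 to 0.857).

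**Figure D3:**
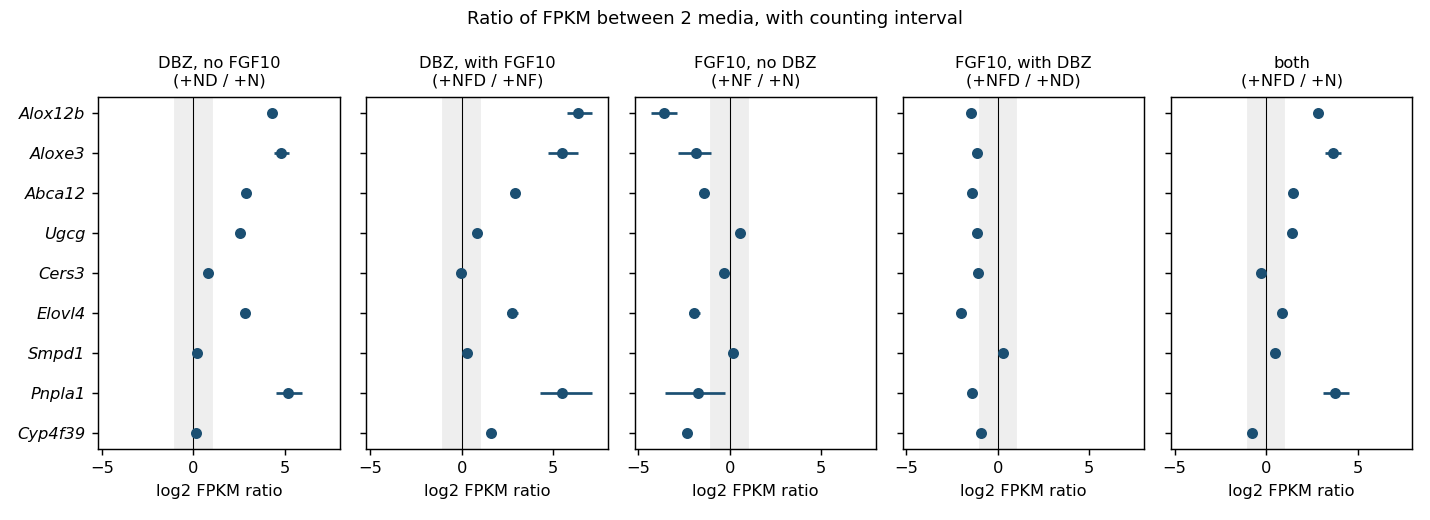
Plain log2 FPKM ratios (no pseudocount) of the 9 genes in the 5 comparisons, with lines for 95% counting intervals from approximate fragment numbers and a grey band within 2-fold. The points of Alox12b, Aloxe3, Abca12, Elovl4 and Pnpla1 lie right of the band in both DBZ panels, and those of Smpd1 lie inside it in all 5.

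The counterparts of the 9 genes within their own families were then examined, from families put together after their values were seen. Mouse lipoxygenases also include Alox12 and Alox15, which oxidise polyunsaturated fatty acids. Alox12 was at 253 FPKM in +N and 23.5 in +ND, and at 125 in +NF and 34.4 in +NFD. Alox15 was at 19.7 FPKM in +N and 0.217 in +ND, and at 6.06 in +NF and 0.0384 in +NFD. Both were thus lower in the media with DBZ, the opposite of Alox12b and Aloxe3. Of the FPKM summed over 7 lipoxygenase genes, Alox12b and Aloxe3 made up 75.4% in +ND and 44.4% in +NFD, against 1.34% in +N and 0.294% in +NF. The sum itself was 278 FPKM in +N and 133 in +NF, against 102 in +ND and 64.2 in +NFD. Alox8, the next lipoxygenase gene on chromosome 11 beside Alox12b, was at most 0.210 FPKM, in +ND.

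**Figure D4:**
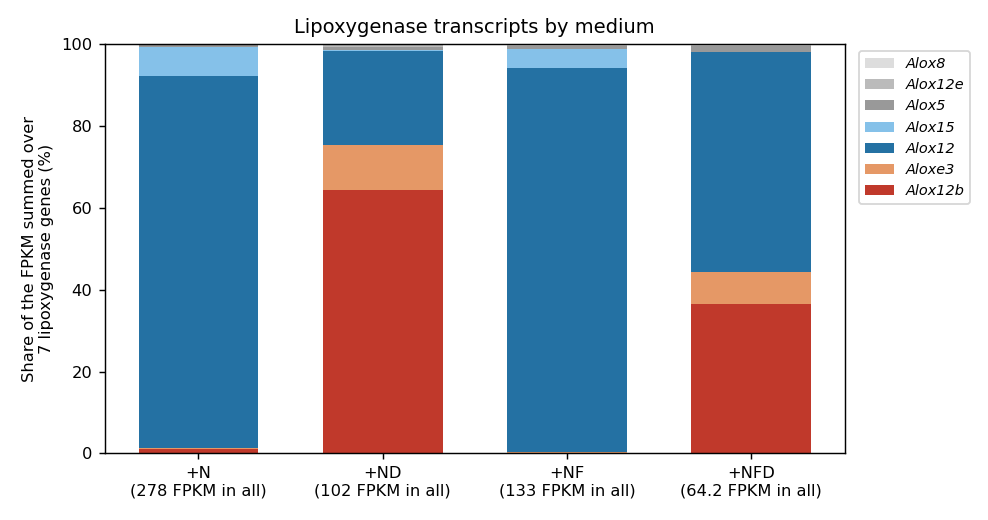
Share of the FPKM summed over 7 lipoxygenase genes (y axis, %) in each medium, stacked by gene, with the summed FPKM under each bar. Alox12 takes 90.9% in +N and 93.9% in +NF, while Alox12b and Aloxe3 together take 75.4% in +ND and 44.4% in +NFD.

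Among the 6 ceramide synthases, Cers3 made up 28.4% of the summed FPKM in +ND, 16.0% in +N, 9.91% in +NF and 9.64% in +NFD. Cers4, which handles shorter acyl chains, was at 126 FPKM in +NFD, 123 in +NF, 66.9 in +N and 40.9 in +ND, so that it was below Cers3 in +ND alone. Elovl4 was 4.66% of the summed FPKM of 7 elongases in +N and 18.5% in +ND, and 1.23% in +NF and 6.18% in +NFD, and Elovl1, which serves many tissues, was the most abundant in each library, from 91.7 FPKM in +NF to 134 in +ND. Smpd1 took between 45.2% and 50.1% of the summed FPKM of 4 sphingomyelinases. Smpd3, the neutral sphingomyelinase, was at 0.731 FPKM in +N and 12.0 in +ND, and at 0.860 in +NF and 6.46 in +NFD, with a log2 ratio for DBZ of 2.91 without FGF10 and 2.00 with it.

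Of 31 further ceramide and sphingolipid genes, 30 passed the filter in +ND against +N; 3 were past 2-fold upwards and 2 downwards, with a median log2 ratio of 0.13. Besides Smpd3, the higher ones were Degs2, the hydroxylase that makes phytoceramide, at 0.673 FPKM in +N and 9.50 in +ND, and the ceramidase gene Acer1, at 0.129 and 3.78 FPKM. In +NF Acer1 was listed at 0 and Degs2 was at 0.747 FPKM; in +NFD they were at 0.830 and 5.21 FPKM. The lower ones were Sptlc3, a subunit of serine palmitoyltransferase, at 10.8 FPKM in +N and 0.398 in +ND, and at 3.04 in +NF and 0.394 in +NFD, and Asah2, a neutral ceramidase gene, at 29.3 and 10.8 FPKM, and 19.6 and 12.1. Of the genes that make ceramide in most cells, the palmitoyltransferase subunit genes Sptlc1 and Sptlc2 were at 25.7 and 49.7 FPKM in +N and at 28.4 and 41.0 in +ND. The small subunit gene Sptssb was at 64.5 FPKM in +N and 34.1 in +ND, and the desaturase gene Degs1 was 1.52-fold higher in +ND, at 128 FPKM against 83.8, neither past 2-fold. With FGF10 present (+NFD against +NF), 2 of 29 were past 2-fold upwards, Degs2 and Smpd3, and 1 downwards, Sptlc3.

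Of 25 genes of fatty acid elongation and activation, 4 of the 22 tested were past 2-fold upwards in +ND against +N and 1 downwards. The higher ones were the elongase gene Elovl6, the dehydratase gene Hacd1 and the desaturase genes Fads1 and Fads2, with log2 ratios from 1.22 to 1.66, and Slc27a1, a fatty acid transporter gene, was the lower one at -1.09. None of 22 passed 2-fold in either direction in +NFD against +NF. Fads1 was at 62.4 FPKM in +NFD, 44.9 in +NF, 21.2 in +ND and 8.07 in +N, so that its values were higher in the media with FGF10, unlike Elovl4.

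Of 22 lipid transport and lamellar granule genes, 21 were in the table, and 3 of the 18 tested were past 2-fold upwards in +ND against +N and none downwards. They were Nipal4, at 3.59 FPKM in +N and 12.3 in +ND, Mfsd2a, at 5.78 and 13.6, and the phospholipase gene Pla2g2f. Pla2g2f was listed at 0 in +N and at 1.57 FPKM in +ND. None of the 15 tested passed 2-fold in +NFD against +NF, where Nipal4 had a log2 ratio of 0.85. Fabp5, a fatty acid-binding protein gene, was at 2942 FPKM in +ND, 2155 in +N, 675 in +NFD and 547 in +NF, lower in both media with FGF10, as Cyp4f39 was. None of the 3 tested Cyp4f relatives and none of the 5 tested genes of the Pnpla list passed 2-fold in either DBZ comparison. Abhd5, the cofactor of PNPLA1, was between 41.9 and 58.3 FPKM.

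Sdr9c7, which encodes a dehydrogenase that acts on the products of ALOX12B and ALOXE3, was at 1.60 FPKM in +N and 14.2 in +ND, and at 0.391 in +NF and 5.17 in +NFD. It was 1 of 10 further lipoxygenase and epoxide pathway genes; of the 8 tested in +ND against +N, it alone was past 2-fold upwards, and Alox12 and Alox15 were past 2-fold downwards. The same 3 genes passed in +NFD against +NF, where 7 were tested. Among 10458 genes outside the group that reached 5 FPKM in some library, its profile was the nearest to that of Abca12, at a Euclidean distance of 0.146 between log2(FPKM + 1) values centred over the 4 libraries. Next to Abca12 were Rnf222 at 0.349 and Glrx at 0.398. The nearest to Alox12b were Sprr2g at 0.347, Klk9 at 0.375 and Endou at 0.392, and the nearest to Aloxe3 were Rnf39 at 0.270, Dnase1l2 at 0.348 and Lrat at 0.464. The pseudocount narrows the span of low values such as those of Aloxe3, so plain ratios of near genes can differ. Rnf39 was at 5.52 FPKM in +N and 51.3 in +ND, against 0.406 and 11.3 for Aloxe3. Likeness over 4 libraries is a description and says nothing of shared control.

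Cornified envelope genes and the markers of suprabasal keratinocytes were read beside these results. Of 8 cornified envelope genes, 4 were past 2-fold upwards in +ND against +N: Lor, Flg, Tgm3 and Tgm5. Tgm1, a transglutaminase proposed to couple ceramides to the envelope, was between 119 FPKM in +NF and 169 in +ND, and Evpl was lower in +ND, at 16.9 FPKM against 39.3. The same 4 passed 2-fold in +NFD against +NF. Ivl and Ppl passed 2-fold in neither DBZ comparison. Their log2 ratios were 0.30 and -0.25 in +ND against +N, and -0.42 and 0.02 in +NFD against +NF. Of the 12 suprabasal keratinocyte markers, 9 were tested in +ND against +N, of which 7 were past 2-fold upwards and 2, Krt10 and Calml3, downwards. With FGF10 present, 6 of 8 were past 2-fold upwards and Calml3 downwards. Cdsn, which encodes a protein of cornified cell junctions, was at 9.14 FPKM in +N and 247 in +ND, and at 2.20 in +NF and 93.4 in +NFD. Krt10, a keratin of early suprabasal cells, was at 94.1 FPKM in +N and 32.8 in +ND, and at 1.25 in +NF and 2.93 in +NFD. Krt1, of the same list, was at 0.300 FPKM in +N and 52.2 in +ND, and at 0.0123 in +NF and 1.07 in +NFD. Its value in +NF rests on about 1 fragment. Krt2, a keratin of the upper epidermis, was listed at 0 in all 4 libraries, Krt77 in all but +N, and Calm5 in +NF.

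Among 15 transcription factor genes linked to the barrier, 2 were past 2-fold upwards with DBZ, Klf4 and Ovol1, and 2 downwards, Zfp750 and Pparg, in both backgrounds, of 12 tested without FGF10 and 13 with it. Klf4 was at 27.6 FPKM in +N and 68.2 in +ND, and at 14.0 in +NF and 35.3 in +NFD. Ovol1 was at 11.7 FPKM in +N and 35.1 in +ND, and at 6.49 in +NF and 20.2 in +NFD. Grhl3, a regulator of barrier genes in skin, was between 19.4 and 31.7 FPKM. Zfp750, which acts with Klf4 in keratinocytes, was at 28.7 FPKM in +N and 9.04 in +ND, and at 14.5 in +NF and 5.92 in +NFD. Pparg, a lipid-sensing nuclear receptor gene, was at 5.21 FPKM in +N and 2.03 in +ND, and at 8.45 in +NF and 2.07 in +NFD.

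**Figure D5:**
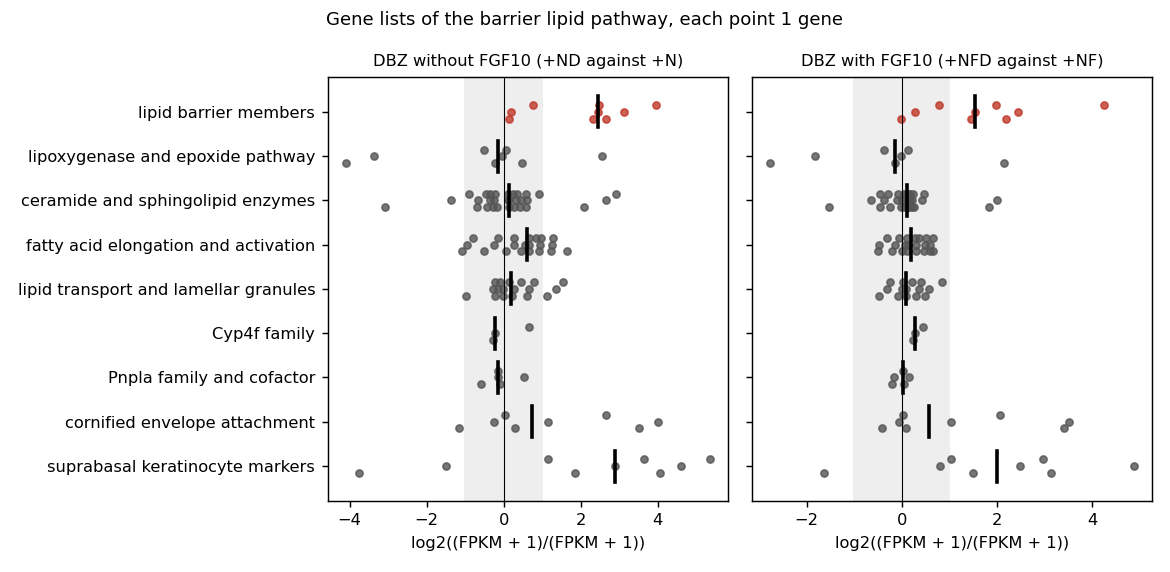
Log2 ratios for DBZ without (left) and with (right) FGF10 of genes that passed the filter, 1 point per gene, by list, with a black bar at the list's median and a grey band within 2-fold. The 9 lipid barrier genes (red) have medians of 2.45 and 1.54, against 0.13 and 0.10 for further ceramide and sphingolipid enzymes and 2.90 and 1.99 for suprabasal keratinocyte markers.

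Markers of other cells were also read. Sebocytes make skin lipids of their own: of 10 sebocyte markers, Awat1 and Elovl3 were listed at 0 in all 4 libraries, Dgat2l6, Mc5r and Awat2 were at most 0.593 FPKM, and the summed level ran from 108 FPKM in +ND to 169 in +N. The 5 sebocyte markers tested in +ND against +N were all lower in +ND, 3 of them past 2-fold. In +NFD against +NF, 2 of the 4 tested were higher and 2 lower, 1 of them past 2-fold downwards. Summed macrophage markers ran from 502 FPKM in +NFD to 759 in +N, and 10 of 10 were above 0 in each library. Summed fibroblast markers were 647 FPKM in +NFD and between 171 (+NF) and 272 (+N) in the others, none was listed at 0, and 8 of 10 were past 2-fold upwards in +NFD against +NF. The part of fibroblast RNA in the comparisons that use +NFD was not tested. Of 8 endothelial markers, Cldn5 was listed at 0 in all 4 libraries and Egfl7 alone reached 1 FPKM.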

How the data were processed

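Bulk RNA-seq libraries of DEOs were analysed, 1 per medium, for 4 of the 6 media in the labels. According to the submitters' processing notes and the study's methods, read quality was assessed (FastQC 0.11.9), adapters were removed (Trim Galore 0.6.5), alignment was to GRCm38 (TopHat2 2.1.1) and abundance came from Cufflinks. The values deposited by the authors are FPKM. The annotation release, the strand setting and the Cufflinks options are not given in the sources used here, so reads of overlapping genes cannot be assigned to a strand. A few abundant transcripts lower the FPKM of all other genes in a library.

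Of 47493 entries, 46994 matched GENCODE M21 by identifier. Values of entries with the same symbol were summed (123 symbols). Ratios were log2((FPKM + 1)/(FPKM + 1)) for genes that reached 1 FPKM in either library, counted at 2-fold. No test was made, since there is 1 library per medium; counts over all genes are given as background. Fragment numbers came from the spacing of low FPKM multiplied by length, over 8367 genes with 1 GENCODE M21 transcript of at least 1000 nt. The 95% intervals of ratios are exact (Clopper-Pearson) for these upper fragment numbers, so they can be too narrow. They cover counting error only. The computations were tested on simulated data. Named genes were members of the group, list members past 2-fold in a DBZ comparison or among the 3 highest of a list. Some were named by likeness to Alox12b, Aloxe3 or Abca12. Others were chosen after their values were seen: Sptlc1, Sptlc2, Sptssb, Alox8, Cers4, Grhl3, Awat2, Mc5r, Dgat2l6, Krt77, Calm5, Ivl, Ppl and the markers at 0. 1 marker of basal and dental epithelium is not reported here. The members and lists were chosen with earlier results of these data known. Alternatives were pseudocounts of 0.1 and 0, no filter, a filter at 5, upper-quartile scaling, centred ratios, the highest entry per symbol, a 1.5-fold limit and, added after the data were seen, protein-coding genes alone. Scripts ran in Python 3.11.15 (scipy 1.17.1, pandas 2.3.3, numpy 2.4.6), with figures by matplotlib 3.10.9.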

Additional observations from a re-analysis of the deposited data

Results flagged for a closer look

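Ugcg was singled out because FGF10 went with a higher value in one background and a lower one in the other, and the counting intervals of both ratios leave out 1. Its log2 ratio for FGF10 was 0.47 without DBZ (4.60 FPKM in +N, 6.76 in +NF) and -1.07 with DBZ (26.9 in +ND, 12.3 in +NFD), a difference of -1.54. The difference was not tested, since each medium has 1 library.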

How the results depend on the processing

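No paired analysis was possible because each medium has 1 library. Of 90 counts of members past 2-fold under the alternatives, 89 stayed within 1.5 times the reported count. The exception was a 1.5-fold limit in +NFD against +N, under which 1 member, Cyp4f39, counted as lower, against 0 at 2-fold. Of 297 log2 ratios of single members in the comparisons where they were tested, none that was past 2-fold changed sign, and 65 moved by more than the counting error of the ratio on the log2 scale: 22 of 43 without a pseudocount, 22 of 43 with a pseudocount of 0.1, 15 of 43 with centred ratios and 6 of 43 with upper-quartile scaling. No filter (43 ratios), the filter at 5 (39) and the highest entry per symbol (43) could not move a member's ratio. Each member has 1 entry, so the highest entry could not change the members' counts either. The largest moves were in +NFD against +NF. There Pnpla1 went from 1.54 to 3.88 with a pseudocount of 0.1 and to 5.51 without one, and Aloxe3 from 2.45 to 4.61 and 5.51.

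Counts over all genes depended more on the settings. With a pseudocount of 0.1, 1212 genes were higher and 955 lower in +ND against +N, 712 and 480 in +NF against +N, 818 and 576 in +NFD against +ND, and 1271 and 743 in +NFD against +N. Without a pseudocount they were 1222 and 956, 720 and 477, 829 and 583, and 1269 and 728. At a filter of 5 FPKM, 307 and 267 were left in +NFD against +NF, 290 and 311 in +NFD against +ND, and 488 and 419 in +NFD against +N. With a 1.5-fold limit the counts were 2281 and 1522 in +ND against +N, 1011 and 823 in +NFD against +NF, 1305 and 742 in +NF against +N, 1572 and 1071 in +NFD against +ND, and 2145 and 1038 in +NFD against +N. Depth limits Pnpla1, Aloxe3 and Alox12b in +NF, where 3 fragments correspond to 0.0244, 0.0233 and 0.0449 FPKM.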
